A study of Mus musculus with 6 samples.

Results

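Astrocytes of the lumbar spinal cord in which no Gfap RNA was read are described here in mice with a motor neuron disease, with and without PHD1. A nucleus was taken as a member when it carried at least 3 of the 6 astrocyte genes Aqp4, Slc39a12, Slc7a10, Gja1, Slc4a4 and Fgfr3, had 0 unique molecular identifiers (UMIs, each standing for 1 captured RNA molecule) of Gfap, at most 1 UMI of the neuron genes Snap25 and Rbfox3 together, and at most 1 UMI of the oligodendrocyte genes Mog, Mag and Mobp together. At least 500 UMIs and under 5% mitochondrial UMIs were also asked of it. This rule found 642 nuclei among 42628 that passed the UMI and mitochondrial limits. The same rule with at least 1 Gfap UMI found 661 nuclei, called Gfap-positive astrocytes below and used as the comparison class.

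Nuclei came from frozen lumbar cords of C57BL/6 mice aged 110 days. All 6 libraries carry SOD1G93A, a transgene for a mutant human superoxide dismutase that models amyotrophic lateral sclerosis, so neither group is free of disease. In 3 libraries the mice were SOD1G93A/PHD1+/+ and in 3 they were SOD1G93A/PHD1-/-, a deletion carried by every cell type and not by astrocytes alone as far as the labels say. PHD1, the product of Egln2, is a prolyl hydroxylase that senses oxygen, and the series title names the astrocytic interferon response, so the genotype comparison asks what loss of PHD1 goes with in these nuclei. The labels speak of littermate pairs. They do not say whether a library holds 1 cord or a pool, so the p-values measure the spread between these libraries.

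Astrocytes take up glutamate, GABA and glycine released at synapses, buffer potassium and share metabolites through gap junctions. Protoplasmic astrocytes of the grey matter reach around synapses and contain little glial fibrillary acidic protein, the intermediate filament protein encoded by Gfap. Fibrous astrocytes of the white matter and reactive astrocytes in injured tissue contain much of it. Astrocytes of SOD1G93A cords are known to become reactive as motor neurons are lost.

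The PHD1+/+ libraries gave 56, 114 and 94 Gfap-negative astrocytes for replicates 1, 2 and 3, and the PHD1-/- libraries gave 67, 52 and 259. Members were chosen by their UMIs of the 12 rule genes. Their summed counts ran from 67740 to 639568 UMIs a library, and PHD1-/- replicate 3 held the most. The median nucleus had 1140.5 and 1204 UMIs in replicate 1 of the 2 groups and 1856 to 2381 UMIs in the other 4 libraries. Replicate 1 of both groups was therefore the shallowest, and those 2 libraries also shared 86 cell barcodes, against 0 to 14 for every other pair of libraries. The part of these shared barcodes in the results was not tested.

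Each rule gene was read in members of all 6 libraries, apart from Gfap, which the rule sets to 0. Slc4a4, a sodium bicarbonate cotransporter, stood at 1580 to 3961 CPM (UMI counts brought to the same total in every class and library). Gja1, the gap junction protein connexin 43, stood at 905 to 1355 CPM and Aqp4, the water channel of astrocyte endfeet, at 635 to 1628 CPM. Slc7a10, a transporter of small neutral amino acids, stood at 473 to 945 CPM, and Fgfr3, a receptor for fibroblast growth factors, at 186 to 543 CPM. These genes chose the members, so their values are a description and carry no test.

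The edges of the rule held many nuclei. Among nuclei with 0 Gfap UMIs that passed the other limits, 158 carried just 3 of the 6 markers and were taken, and 290 carried 2 and were not. On the Gfap side, 248 nuclei with 1 Gfap UMI fell just outside, 130 had 2 and 283 had 3 or more. Of 851 Gfap-negative nuclei with at least 3 markers, 161 were left out for UMIs of the neuron genes and 73 for UMIs of the oligodendrocyte genes. Among the members, 215 kept 1 neuron-gene UMI and 121 kept 1 oligodendrocyte-gene UMI.

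A reading of 0 Gfap UMIs depends on depth and on free RNA in the droplets. Oligodendrocyte nuclei, which should lack Gfap, carried a Gfap UMI in 15.74%, 8.289% and 3.407% of nuclei for the PHD1+/+ libraries and in 9.46%, 4.6% and 3.696% for the PHD1-/- libraries (replicates 1, 2 and 3 in order), at medians of 987 to 2000.5 UMIs. The share was highest in replicate 1 of both groups. A member is a nucleus in which Gfap was not detected at its depth. In the Gfap-positive class the summed Gfap level was 3434, 1234 and 770 CPM in PHD1+/+ and 2461, 1030 and 979 CPM in PHD1-/-.

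The members did not all carry the markers of protoplasmic astrocytes. At least 2 of 9 ependymal marker genes (genes of the ciliated cells that line the central canal) had a UMI in 84 of the 642 members, which is 13.08%. The PHD1+/+ libraries held 1, 15 and 22 of them and the PHD1-/- libraries 3, 4 and 39. Cfap299, which encodes a protein of cilia and flagella, had a UMI in 79 of these 84 nuclei and in 3 of the other 558 members. Dnah12, a dynein heavy chain of the axoneme, had one in 78 of 84 against 4 of 558, but it is one of the 9 markers that made the split, so this contrast is a description.

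Several astrocyte genes separated the same nuclei the other way. Slc7a10 was read in 1 of the 84 ependymal-marked members and in 392 of the other 558. Gpc5, a glypican abundant in protoplasmic astrocytes, was read in 6 of 84 against 500 of 558, and Slc6a11, the GABA transporter GAT3, in 10 of 84 against 436 of 558. Slc1a2, the main glutamate transporter of astrocytes, was read in 26 of 84 against 524 of 558. Slc1a3, another glutamate transporter of astrocytes, hardly separated them, at 36 of 84 against 280 of 558. By contrast Slc39a12, a zinc transporter, was read in 76 of 84 and Gja1 in 67 of 84. Members had to carry at least 3 of the 6 markers, and Fgfr3, like Slc7a10, was read in few of the 84 (10). The rule itself thus called for most other markers in these nuclei, and the counts of Slc39a12 and Gja1 are a description. Slc7a10, Gpc5, Slc6a11 and Slc1a2 were thus read in most of the other 558 members and in a minority of these 84. For the 84 this goes against the working name of protoplasmic astrocytes, and the class is called Gfap-negative astrocytes by its rule. The comparisons below are given with all members and without the ependymal-marked nuclei, a split made after the data were seen. Between classes, such nuclei were left out of the Gfap-positive class too, where 551 of 661 carried 0 of these markers and 83 carried 1.

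**Figure D1:**
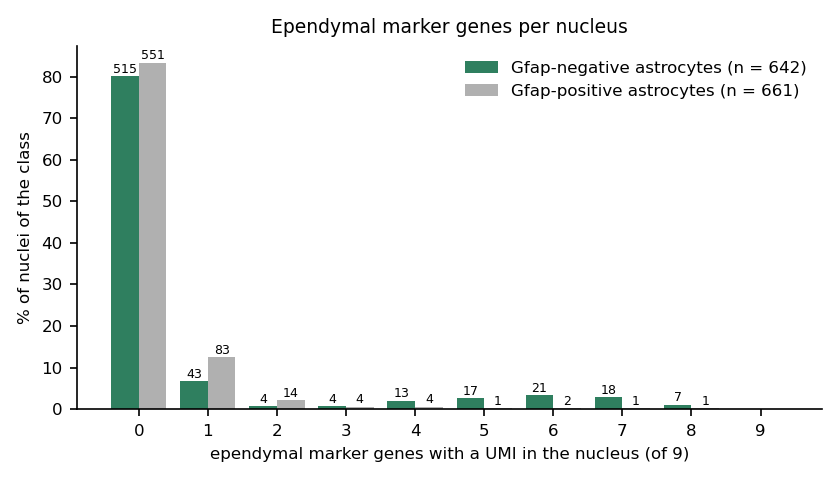
Number of ependymal marker genes with a UMI (x axis, 0 to 9) against the share of nuclei of the class in % (y axis), with bars for Gfap-negative and Gfap-positive astrocytes and the number of nuclei over each bar. Among members 515 nuclei carried 0 such genes and 43 carried 1, and a second group from 4 to 8 is seen in the members and hardly in the Gfap-positive class.

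Neuron and oligodendrocyte markers were lower in the members than in all other nuclei, and were highest in replicate 1 of each group. The summed level of 10 neuron markers outside the rule was 3277, 1136 and 812 CPM in PHD1+/+ and 1554, 575 and 654 CPM in PHD1-/-, against 12671 to 19333 CPM in all other nuclei. For 8 oligodendrocyte markers outside the rule it was 2259, 841 and 881 CPM in PHD1+/+ and 1148, 1077 and 668 CPM in PHD1-/-, against 3788 to 5805 CPM in all other nuclei. The 12 microglia and macrophage markers summed to 147 to 399 CPM, against 483 to 763 CPM in all other nuclei. Vascular markers were not lower in the members. The 10 endothelial and mural markers summed to 664, 188 and 139 CPM in PHD1+/+ and 371, 194 and 170 CPM in PHD1-/-, against 471, 71.9, 121, 421, 37.1 and 165 CPM in all other nuclei, so PHD1-/- replicate 1 alone lay below. The 8 meningeal fibroblast markers summed to 46.4 to 325 CPM against 31.8 to 205 CPM, the 6 Schwann cell markers to 138 to 989 CPM against 128 to 702 CPM, and the 8 oligodendrocyte precursor markers to 522 to 783 CPM against 720 to 1106 CPM. The part of this RNA in the results was not tested. No marker of these lists was at 0 in all 6 libraries of members.

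Gfap-negative astrocytes made up 0.612%, 1.42% and 1.75% of nuclei for replicates 1, 2 and 3 of PHD1+/+ and 1.02%, 0.703% and 4.24% for those of PHD1-/-. The groups overlap, and PHD1-/- replicate 3 alone lies far above the rest. The means were 1.26 ± 0.587% and 1.99 ± 1.96% (SD, n = 3 libraries each), a difference of 0.724 percentage points (exact permutation test, two-sided, p = 0.8). Without PHD1-/- replicate 3 the difference was -0.402 points, and without the ependymal-marked nuclei it was 0.681 points. With 3 libraries a group the smallest p this test can give is 0.1, and shares of nuclei depend on how nuclei were recovered from each cord.

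Among all astrocytes by the rule, the Gfap-negative share was 31.5%, 42.4% and 68.1% in PHD1+/+ and 38.3%, 44.4% and 60.8% in PHD1-/-. In both groups replicate 1 was lowest and replicate 3 highest, and the range within a group was far wider than the difference between groups. The means were 47.3 ± 18.8% and 47.8 ± 11.6% (SD, n = 3 libraries each), a difference of 0.524 points (exact permutation test, two-sided, p = 1). After every nucleus had been thinned to 1000 UMIs and shallower nuclei left out, the share was 34.0%, 61.2% and 75.4% in PHD1+/+ and 41.7%, 67.3% and 74.5% in PHD1-/-. Too shallow for this were 12, 10 and 5 members of PHD1+/+ and 21, 0 and 6 of PHD1-/-. Replicate 1 was still lowest at equal depth, and it is also where oligodendrocyte nuclei carried most free Gfap RNA. Its part in the share was not tested. Without the ependymal-marked nuclei the means were 45.6% and 46.6%.

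**Figure D2:**
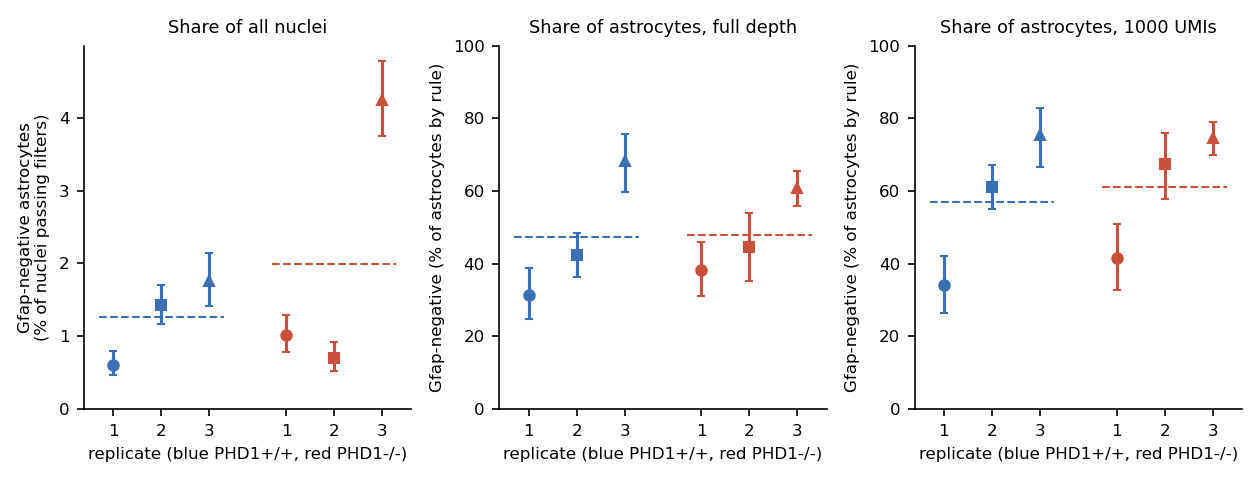
Gfap-negative astrocytes in each library as % of all nuclei that passed the limits (left), and as % of astrocytes by the rule at full depth (middle) and at 1000 UMIs a nucleus (right); points are libraries, bars exact 95% binomial intervals that cover counting error only, dashed lines group means. PHD1-/- replicate 3 stands apart at 4.24% of nuclei, and the 2 groups overlap in all 3 panels.

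The comparison within astrocytes asked how Gfap-negative nuclei differed from Gfap-positive nuclei of the same libraries. Genes that the rule used, Gfap among them, were left out of it. The filter on low counts could be met by either class alone, so a gene near 0 in the other class could differ in a single direction only. Of the tested grey-matter astrocyte genes 8 of 16 were called higher in the Gfap-negative class. Of the tested white-matter genes 8 of 11 were called lower, and of the reactive astrocyte genes 5 of 9 were called lower and 1 higher. UMIs were summed for each class in each library and compared with edgeR's quasi-likelihood test with the library as a block, and p-values were adjusted by Benjamini-Hochberg with a threshold of 0.05. Of 4052 genes tested, 118 (2.91%) were higher in Gfap-negative astrocytes and 139 (3.43%) were lower, together 6.34%. Without the ependymal-marked nuclei 112 of 3435 genes (3.26%) were higher and 169 (4.92%) lower, together 8.18%. Both fits called 70 genes higher, which is 59.3% of the 118 and 62.5% of the 112. Both called 118 genes lower, which is 84.9% of the 139 and 69.8% of the 169.

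Depth differed between the classes. The median Gfap-positive nucleus of the PHD1+/+ libraries had 1301, 2632 and 2354 UMIs and that of the PHD1-/- libraries 1261.5, 2738 and 2748, more than the median member in each library. With every nucleus thinned to 1000 UMIs before Gfap was read, 1494 genes could be tested, and 38 were higher and 71 lower in Gfap-negative astrocytes. Of the 118 and 139 genes, 63 and 91 could be tested at that depth, and 56 and 91 of these kept their direction. The count of higher genes rested in part on single libraries, and was 68 without PHD1+/+ replicate 2 and 58 without PHD1-/- replicate 3. DESeq2 called 52 higher and 76 lower, all of them among the genes called by edgeR, and without the library as a block 13 were higher and 22 lower.

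Of 18 genes of grey-matter astrocytes, 16 passed the filter on low counts, 15 of these were higher in Gfap-negative astrocytes, and 8 passed the test, all of them higher. Among the 8 were Slc6a11, Slc6a9, Lgr6, Gpc5, Trpm3, Grm3 and Cables1. The median log2 fold change of the 16 genes was 0.39, beside 0.01 over all genes tested, and it was 0.44 without the ependymal-marked nuclei, beside -0.02. Which of these genes count as grey-matter genes was settled with earlier results of these data known, so their direction is not independent evidence.

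Transporters that clear transmitters from synapses were among these grey-matter genes. Slc6a11 (ENSMUSG00000030307), which encodes the GABA transporter GAT3, lies on chromosome 6 at 114131241-114249952 (plus strand, GRCm38) and is protein-coding. In Gfap-negative astrocytes it stood at 546, 1283 and 956 CPM in PHD1+/+ replicates 1, 2 and 3 and at 545, 1272 and 1059 CPM in PHD1-/- replicates 1, 2 and 3. In Gfap-positive astrocytes of the same libraries the levels were 334, 785, 1027, 274, 894 and 826 CPM. It was thus higher in 5 of 6 libraries, with PHD1+/+ replicate 3 the exception (log2 fold change 0.49, SE 0.12, adjusted p = 0.0105 by edgeR). Oligodendrocyte nuclei of the same libraries held 3.19 to 11.9 CPM of Slc6a11. At 1000 UMIs a nucleus, Slc6a11 was read in 40.9% to 64.4% of members (median over libraries 55.9%) and in 15.9% to 52.7% of Gfap-positive astrocytes (median 48.9%). At full depth the medians were 71.1% and 67.7%, and oligodendrocyte nuclei gave 0.688% to 2.61%.

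Slc6a9, the glycine transporter GLYT1, stood at 236, 447 and 306 CPM in PHD1+/+ and 116, 405 and 289 CPM in PHD1-/- among members. In Gfap-positive astrocytes it stood at 151, 203, 177, 114, 289 and 240 CPM. It was higher in 6 of 6 libraries, by a margin that was small in PHD1-/- replicate 1 (log2 fold change 0.62, SE 0.15, adjusted p = 0.00763 by edgeR). Glul, the enzyme that turns glutamate into glutamine, and Abat, which breaks down GABA, also passed the test, with log2 fold changes of 0.60 (SE 0.14) and 0.61 (SE 0.15) and higher levels in 6 of 6 libraries. Glul is read in oligodendrocyte nuclei too, at a mean of 409 CPM against 314 CPM in the members.

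Of the 12 genes for handling glutamate, GABA and glycine, 10 were tested, 9 were higher and these 4 passed the test, with a median log2 fold change of 0.35 (0.42 without the ependymal-marked nuclei). The main glutamate transporter was not among them. Slc1a2 stood at 1698 to 4010 CPM in members and 1642 to 4142 CPM in Gfap-positive astrocytes, with a log2 fold change of 0.09 (SE 0.10, adjusted p = 0.788 by edgeR). Slc1a3, the second glutamate transporter, stood at a mean of 406 CPM in members and 408 CPM in Gfap-positive astrocytes. The data therefore show a difference for GABA and glycine transporters and none past the threshold for the glutamate transporters, and no test compared the 2 kinds of transporter.

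Gpc5 (ENSMUSG00000022112, chromosome 14, 115092215-116525179, plus strand, GRCm38), the glypican, stood at 3440, 4919 and 5200 CPM in PHD1+/+ and 5151, 7412 and 5366 CPM in PHD1-/- members. In Gfap-positive astrocytes it stood at 1595, 3469, 4452, 1745, 4746 and 4075 CPM. It was higher in members in 6 of 6 libraries (log2 fold change 0.72, SE 0.12, adjusted p = 6.64e-05 by edgeR). The cation channel gene Trpm3 was also higher in 6 of 6 libraries, with a log2 fold change of 0.45 (SE 0.09). Lgr6, a receptor that enhances Wnt signalling, was higher by 0.95 (SE 0.28).

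Among receptors, Grm3, a metabotropic glutamate receptor gene (chromosome 5, 9485541-9725170, minus strand, GRCm38), stood at 118, 103 and 130 CPM in PHD1+/+ and 81.2, 227 and 152 CPM in PHD1-/- members. Gfap-positive astrocytes held 20.8, 72.2, 79.7, 66.9, 54.5 and 72.3 CPM, so no library of that class reached the lowest library of the members (log2 fold change 1.08, SE 0.23, adjusted p = 0.00176 by edgeR). Oligodendrocyte nuclei held 419 to 896 CPM of Grm3, more than either astrocyte class, and the part of such RNA in this difference was not tested.

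Of 20 transmitter and peptide receptor genes 13 were tested and 4 passed, all higher in Gfap-negative astrocytes. Among them were Grm3, Gabbr2, a GABA-B receptor subunit, and Gria2, an AMPA-type glutamate receptor subunit, with log2 fold changes of 1.08, 1.07 and 0.74. The median of the 13 was 0.01, with 7 higher and 6 lower, beside 0.01 over all genes tested. Over all genes tested 2.91% were called higher.

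Of 12 spinal position genes 3 could be tested and 1 passed. This was Pax3, a transcription factor of the dorsal neural tube (chromosome 1, 78101267-78197134, minus strand, GRCm38). It stood at 118, 71.5 and 116 CPM in PHD1+/+ and 104, 113 and 122 CPM in PHD1-/- members. Gfap-positive astrocytes held 41.7, 48.9, 44.3, 60.2, 70.8 and 68.2 CPM, and the classes did not overlap (log2 fold change 0.88, SE 0.21, adjusted p = 0.00746 by edgeR). Oligodendrocyte nuclei held 0.231 to 1.92 CPM. Reln, which encodes a secreted glycoprotein, was lower in 5 of 6 libraries without passing the test (log2 fold change -0.48, SE 0.16, adjusted p = 0.0657 by edgeR). Reln passed the test without the ependymal-marked nuclei (-0.76, SE 0.17, adjusted p = 0.00123 by edgeR).

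White-matter genes went the other way. Of 20 listed genes 11 were tested, 0 were higher in Gfap-negative astrocytes, and 8 passed the test as lower, with a median log2 fold change of -0.70 (-0.80 without the ependymal-marked nuclei). Among the 8 were Vim, Cd44, Id3, Myoc, Slc38a1, Clu and Dclk1. For the genotype comparison, in members alone, 8 of the 20 listed genes passed the filter. A gene near 0 in members, such as Myoc, could enter here through the Gfap-positive class and then hardly be higher in members.

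Myoc (ENSMUSG00000026697, chromosome 1, 162639155-162649693, plus strand, GRCm38) encodes myocilin, a secreted glycoprotein. It stood at 0, 49.2 and 0 CPM in PHD1+/+ and 23.2, 0 and 20.3 CPM in PHD1-/- members, against 88.6, 319, 230, 86.9, 104 and 140 CPM in Gfap-positive astrocytes. The classes did not overlap (log2 fold change -3.15, SE 0.31, adjusted p = 1.32e-08 by edgeR). Oligodendrocyte nuclei held 0.417 to 4.32 CPM. At 1000 UMIs a nucleus Myoc was read in 0% to 2.885% of members and 6.10% to 13.95% of Gfap-positive astrocytes.

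Cd44, a hyaluronan receptor of fibrous and reactive astrocytes, stood at 0, 139 and 4.64 CPM in PHD1+/+ and 69.6, 8.10 and 43.8 CPM in PHD1-/- members. In Gfap-positive astrocytes it stood at 172, 319, 177, 120, 229 and 161 CPM, higher in each library (log2 fold change -1.96, SE 0.27, adjusted p = 5.57e-06 by edgeR). Vim, the intermediate filament vimentin, stood at 88.6, 35.8 and 51.0 CPM in PHD1+/+ and 69.6, 8.10 and 43.8 CPM in PHD1-/- members. In Gfap-positive astrocytes it stood at 406, 121, 70.8, 207, 76.3 and 70.2 CPM, and the classes overlap although each library was lower in members (-1.36, SE 0.24, adjusted p = 0.000286). Ependymal-marked nuclei carry Vim, in 24 of 84 against 29 of the other 558 members, and without them the fold change was -1.91.

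Of 30 reactive astrocyte genes 9 were tested and 6 passed the test. Vim, Cd44, C3, C4b and Stat3 were lower in Gfap-negative astrocytes, and Ptgds was higher, and the median of the 9 was -0.97. For the genotype comparison, in members alone, 4 of the 30 genes passed the filter. Genes low in members could enter here through the Gfap-positive class. C3, the central complement component (chromosome 17, 57203970-57228136, minus strand, GRCm38), stood at 29.5, 58.1 and 0 CPM in PHD1+/+ and 23.2, 16.2 and 14.1 CPM in PHD1-/- members. Gfap-positive astrocytes held 104, 373, 79.7, 80.2, 142 and 114 CPM (log2 fold change -2.80, SE 0.27, adjusted p = 8.15e-09 by edgeR). The classes did not overlap, and PHD1+/+ replicate 2 was highest in both.

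C4b, another complement gene, was lower in members by 1.49 on the log2 scale (log2 fold change -1.49, SE 0.19) at a mean of 65.9 CPM against 194 CPM, and oligodendrocyte nuclei held 237 CPM of it. Stat3, a transcription factor that drives astrocyte reactivity, stood at 97.2 to 125 CPM in members and 147 to 268 CPM in Gfap-positive astrocytes (-0.97, SE 0.16, adjusted p = 6.89e-05). Ptgds, a prostaglandin synthase, was higher in members by 0.55 (SE 0.16, adjusted p = 0.0269), but oligodendrocyte nuclei held a mean of 3644 CPM against 481 CPM in members, and at 1000 UMIs a nucleus its fold change was -0.17.

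Levels of 3 genes by the number of Gfap UMIs are given here as a description of the rule's threshold with no test. The mean of Slc6a11 over the 6 libraries was 943 CPM at 0 Gfap UMIs, 982 at 1, 689 at 2 and 448 at 3 or more. It was thus not lower at 1 than at 0. The nuclei at 0 include the 84 ependymal-marked members, of which 10 carried Slc6a11. The mean of Myoc was 15.5, 39.9, 165 and 281 CPM in the same order, and that of C3 was 23.5, 59.0, 84.0 and 238 CPM. Nuclei with 1 Gfap UMI, just outside the rule, lay nearer to the members than to nuclei with 3 or more for these 3 genes.

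**Figure D3:**
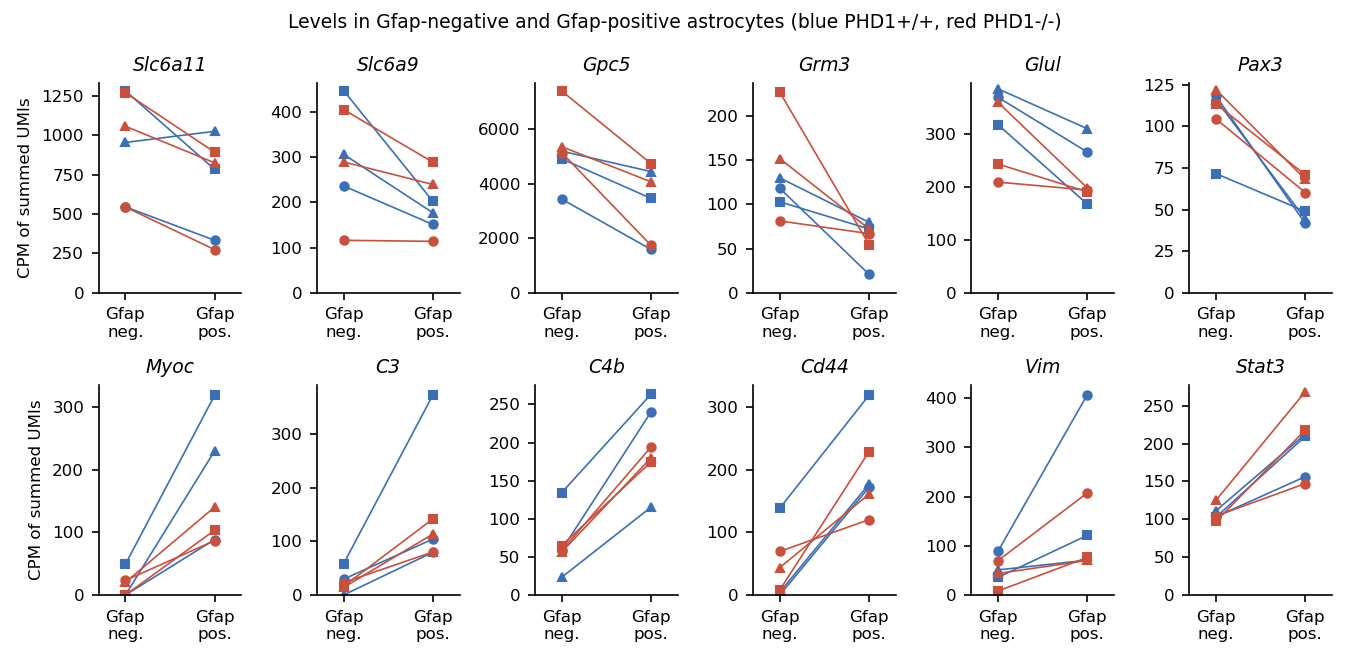
Level of 12 genes in CPM (y axis, linear, its own scale for each gene) in Gfap-negative and Gfap-positive astrocytes, with a line for each library (blue PHD1+/+, red PHD1-/-; circle, square and triangle for replicates 1, 2 and 3). The genes of the upper row are higher in Gfap-negative astrocytes except Slc6a11 in PHD1+/+ replicate 3, and those of the lower row are lower in each of the 6 libraries.

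The 10 genes with the largest fold changes in each direction, among called genes with a mean of at least 50 CPM in one class and the same direction in all 6 libraries, differed in kind. The 10 higher genes were Cfap299, Dnah12, Ankfn1, 3300002A11Rik, Ralyl, Cfap69, Ccdc146, Cfap43, Agbl4 and Cep126, with log2 fold changes of 3.53 down to 1.82. Several of them, such as Cfap299, Dnah12, Cfap69 and Cfap43, belong to cilia, and Dnah12 and Cfap43 are among the 9 ependymal markers. Cfap299 stood at 59.0, 313 and 598 CPM in PHD1+/+ and 220, 130 and 341 CPM in PHD1-/- members, and without the ependymal-marked nuclei at 0 to 25.1 CPM. None of the 10 passed the filter on low counts once those nuclei were left out, so these largest fold changes rested on the ependymal-marked nuclei.

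Without those nuclei the 10 higher genes were Grm3, Actr3b, Kcnt1, Nat8f3, Ptn, Tmc7, Pax3, Grin2b, B230323A14Rik and Grk3, with log2 fold changes from 1.15 down to 0.88. Kcnt1 encodes a sodium-activated potassium channel, Ptn the growth factor pleiotrophin, Grin2b an NMDA receptor subunit and Grk3 a kinase that desensitises G-protein-coupled receptors. All 10 also passed the test with the ependymal-marked nuclei in.

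Among the 10 lower genes were 6330411D24Rik, Myoc, C3, A2m, Gm10635, Asap3, Cd44, Dhrs1 and Pdzrn3, and the 10 had log2 fold changes of -3.49 up to -1.84. The largest was 6330411D24Rik (ENSMUSG00000110067), a processed transcript on chromosome 4 at 142598441-143074839 (minus strand, GRCm38). It stood at 44.3, 35.8 and 0 CPM in PHD1+/+ and 34.8, 8.10 and 21.9 CPM in PHD1-/- members, against 130, 470, 389, 181, 70.8 and 190 CPM in Gfap-positive astrocytes. A2m, a protease inhibitor, stood at 34.8 to 309 CPM in members against 506 to 1129 CPM, with no overlap (log2 fold change -2.37, SE 0.18). Of these 10 genes 9 were tested without the ependymal-marked nuclei and all 9 passed as lower, at -3.65 to -1.76, and Pdzrn3 fell under the filter.

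For some genes the difference was larger with the ependymal-marked nuclei left out of both classes. Adamtsl1, which encodes a secreted matrix protein, was at -1.58 with them and at -3.20 (SE 0.24) without them, and the ependymal-marked members themselves held a pooled 836 CPM of it against 45.6 CPM in the other members. Ccdc148, which encodes a coiled-coil protein, went from -1.12 to -2.40, and Slc8a1, the sodium-calcium exchanger, from -1.64 to -2.12. Transcripts of the mitochondrial genome changed side. With the ependymal-marked nuclei of both classes 7 of the 8 tested had a log2 fold change above 0, with a median of 0.21 and 0 calls. Without them 8 of 8 were below 0, with a median of -0.35 and calls for mt-Co2 and mt-Cytb. Mitochondrial RNA in a nuclear preparation can come from residual cytoplasm, and mt-Co2 stood at a pooled 1697 CPM in the ependymal-marked members against 189 CPM in the others.

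**Figure D4:**
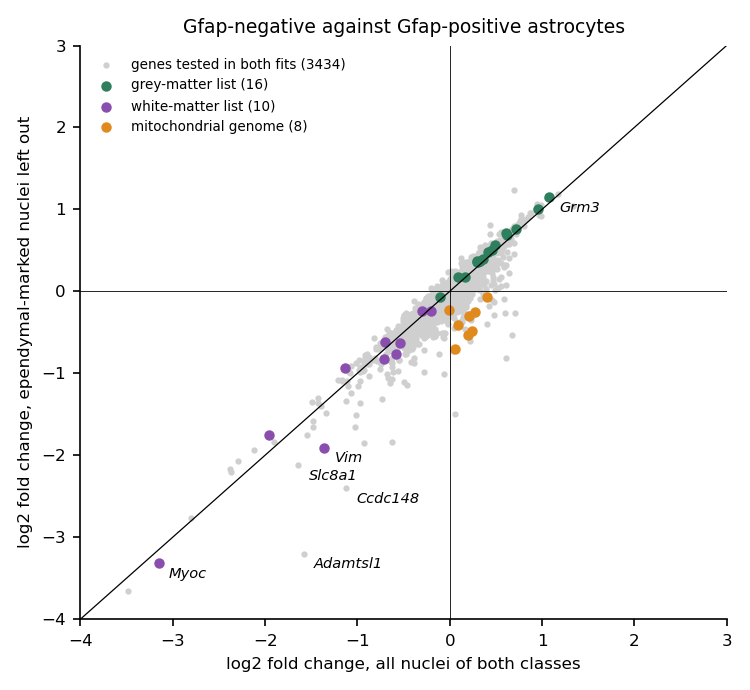
Log2 fold change of Gfap-negative against Gfap-positive astrocytes with all nuclei (x axis) and with the ependymal-marked nuclei left out of both classes (y axis), for the 3434 genes tested in both fits and outside the rule; the diagonal marks equal values. Grey-matter genes lie above 0 and white-matter genes below 0 in both fits apart from 1 grey-matter gene just under 0, the mitochondrial transcripts lie to the right of the diagonal, and Adamtsl1 lies farthest below it among the named genes.

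Other lists split. Of 20 further genes of astrocyte identity 13 were higher and 7 lower, and Glul and Gpc5 passed as higher and Sox9 and Bmpr1b as lower. Sox9, a transcription factor that specifies glia, was lower by 0.68 on the log2 scale (log2 fold change -0.68, SE 0.20) and Id4, an inhibitor of differentiation factors, had the same log2 fold change of -0.68 (SE 0.16). Rora, a nuclear receptor, was higher (0.37, SE 0.10). Among growth-factor and patterning receptors Fgfr2 and Ptch1 were higher (0.42 and 0.59) and Bmpr1b, a receptor for bone morphogenetic proteins, was lower (-0.48).

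Adhesion genes also went both ways, with Lsamp higher (0.46) and Ctnna2 and Lrp1b lower (-0.65 and -0.34). Of synapse-shaping factors, which astrocytes secrete or display, Gpc5 was higher and Sparc, Gpc6 and Tgfb2 were lower (-0.45, -0.59 and -0.80). Lrp1b and Tgfb2 did not pass without the ependymal-marked nuclei (adjusted p = 0.0592 and 0.0653 by edgeR).

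In lipid handling Apoe and Clu, the apolipoproteins E and J, were lower in Gfap-negative astrocytes (-0.34 and -0.58), and 2 of 19 tested genes on that list passed. The metallothionein genes Mt1 and Mt2, which bind metals, and the antioxidant enzyme gene Prdx6 were lower (-0.88, -0.89 and -0.53). Mt1 stood at 2096 CPM in PHD1+/+ replicate 1 and 527 to 942 CPM in the other members' libraries, against 6838 CPM and 670 to 2668 CPM in Gfap-positive astrocytes, so PHD1+/+ replicate 1 was high in both classes. Of 18 HIF target and glycolysis genes tested, Slc16a1, the monocarboxylate transporter MCT1, was the only one to pass (-0.80, SE 0.22, adjusted p = 0.0248 by edgeR), with a list median of -0.03.

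Interferon-stimulated genes could hardly be tested between the classes. Of 55 listed genes 5 passed the filter, 0 passed the test, and the median was -0.35. Of 4 oligodendrocyte markers tested 1 passed, Mbp, which was lower in members (-0.60, SE 0.17), and of 4 neuron markers tested 4 were higher and 0 passed, with a median of 0.30. The part of such RNA in the class differences was not tested.

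The genotype comparison asked what loss of PHD1 went with in Gfap-negative astrocytes. The targeted gene was read first. Egln2 (ENSMUSG00000058709, chromosome 7, 27158658-27166802, minus strand, GRCm38) had 3 UMIs in each of PHD1+/+ replicates 1, 2 and 3, which is 44.3, 13.4 and 13.9 CPM. It had 0, 0 and 5 UMIs in PHD1-/- replicates 1, 2 and 3, which is 0, 0 and 7.82 CPM. Each PHD1+/+ library was above each PHD1-/- library, with means of 23.9 ± 17.7 and 2.61 ± 4.51 CPM (SD, n = 3 libraries each, exact permutation test, two-sided, p = 0.1, the smallest this design allows). Without the ependymal-marked nuclei the difference went from -21.3 to -19.4 CPM (exact permutation p = 0.2), so the libraries were no longer fully separated, and with at least 4 of the 6 markers it was -4.89 CPM (exact permutation p = 0.7).

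A count of 0 in 86203 and 123442 UMIs allows up to 42.8 and 29.9 CPM (exact Poisson upper limits at 95%, covering counting error only), limits that lie above the levels of PHD1+/+ replicates 2 and 3. Summed over libraries, Egln2 had 9 UMIs in 506956 of PHD1+/+ (17.8 CPM, 8.12 to 33.7) and 5 in 849213 of PHD1-/- (5.89 CPM, 1.91 to 13.7). In Gfap-positive astrocytes the means were 41.5 ± 22.8 and 6.52 ± 6.69 CPM. A 3' count need not lie in the deleted part of the gene, so UMIs in PHD1-/- nuclei do not by themselves go against the labels.

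No gene passed the adjusted threshold between genotypes in Gfap-negative astrocytes. Of 3800 genes tested by edgeR's quasi-likelihood test, 0 passed (0%), and 55 (1.45%) had an unadjusted p under 0.05. By DESeq2 0 passed and 29 lay under that unadjusted limit. Without the ependymal-marked nuclei 0 of 3042 passed and 41 (1.35%) had an unadjusted p under 0.05. With the replicate number as a block 0 passed and 231 had an unadjusted p under 0.05. With 52 to 259 nuclei a library, a fold change that misses the threshold does not show that a gene is the same in both genotypes.

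The genes with the smallest unadjusted p are given as values. On the lower side these were Map1b, Vamp1, Tmed7, Adamtsl1, Gm13481 and Sgcd, with log2 fold changes of -1.57 to -1.06, and on the higher side Hibch, Tom1l1, Pak2, Ep300, Acss1 and Fry, with 0.57 to 1.16. Without the ependymal-marked nuclei Tmed7, Adamtsl1, Gm13481 and Sgcd fell under the filter on low counts, and ependymal-marked members held most of the Adamtsl1 RNA (161 of 214 UMIs). Map1b, a microtubule-associated protein, stood at 251, 197 and 209 CPM in PHD1+/+ and 92.8, 105 and 113 CPM in PHD1-/- members. The groups did not overlap (log2 fold change -1.06, SE 0.31, adjusted p = 1.00 by edgeR). Hibch, a mitochondrial enzyme of valine breakdown, stood at 14.8, 49.2 and 51.0 CPM against 104, 105 and 93.8 CPM (log2 fold change 1.16, SE 0.38), again with no overlap.

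Tom1l1, an adaptor of endosomal sorting that oligodendrocyte nuclei hardly held, at 1.67 to 4.80 CPM, stood at 103, 179 and 158 CPM in PHD1+/+ and 278, 332 and 239 CPM in PHD1-/- members (0.87, SE 0.28). Over all tested genes, PHD1-/- libraries lay wholly below PHD1+/+ libraries for 132 (3.47%) and wholly above for 156 (4.11%), and without the ependymal-marked nuclei these shares were 2.86% and 3.91%, so these 12 genes are the top of a ranking and not calls. All 12 are among the genes with no overlap.

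For the interferon response, which the series title names, little RNA was read in this class. Of 55 interferon-stimulated genes 3 passed the filter, Herc6, B2m and H2-K1, with log2 fold changes of -0.67 (SE 0.42), -0.61 (SE 0.74) and -0.12 (SE 0.42), and 0 passed the test. The median of the 3 was -0.61, the value of B2m, beside -0.01 over all tested genes. B2m turned to 0.04 without PHD1+/+ replicate 1, and without the ependymal-marked nuclei 2 of the genes were tested, with a median of -0.39. B2m, the light chain of MHC class I, stood at 236, 93.9 and 37.1 CPM in PHD1+/+ and 151, 40.5 and 50.0 CPM in PHD1-/-, and the groups overlap. H2-K1, a class I heavy chain, stood at 118, 85.0 and 92.8 against 116, 113 and 61.0 CPM. Herc6, an interferon-induced ubiquitin ligase, stood at 88.6, 85.0 and 60.3 against 58.0, 64.8 and 39.1 CPM, and here too the groups overlap.

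Summed over the 53 listed genes in the tables, interferon-stimulated genes gave 1476, 1163 and 742 CPM in PHD1+/+ and 1102, 656 and 696 CPM in PHD1-/- members, and the groups overlap. Cxcl10, an interferon-induced chemokine singled out after its values were seen, had 6 UMIs in members, all in PHD1+/+ replicate 2 (26.8 CPM), and 73 UMIs in Gfap-positive astrocytes, where PHD1+/+ replicate 3 stood at 593 CPM and the other 5 libraries at 0 to 13.4 CPM. Isg15 and Ifit3, classical interferon-induced genes, had 2 UMIs each in all members.

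Genes of oxygen sensing and metabolism gave no call. Of 36 HIF target and glycolysis genes 18 were tested, 5 were higher and 13 lower in PHD1-/-, with a median of -0.28 (-0.40 over 17 genes without the ependymal-marked nuclei). Hif1a, the oxygen-regulated subunit of the HIF factor, stood at 207, 259 and 223 CPM in PHD1+/+ and 162, 267 and 289 CPM in PHD1-/- (log2 fold change 0.06, SE 0.27). Aldoc, the aldolase of brain glycolysis, stood at 841, 380 and 353 against 464, 308 and 331 CPM (-0.54, SE 0.42), and Ldhb, a lactate dehydrogenase subunit, at 546, 188 and 204 against 267, 227 and 227 CPM (-0.35, SE 0.46). For both genes PHD1+/+ replicate 1 was the highest library, and without it the log2 fold changes were 0.03 and 0.32.

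The same library was high in other lists. The sum of 30 ribosomal protein genes was 9684 CPM in PHD1+/+ replicate 1 and 3139 to 5151 CPM in the other 5 libraries of members, and mitochondrial transcripts summed to 7735 CPM against 2552 to 3979 CPM. The medians of the log2 fold changes were -0.42 for ribosomal protein genes (1 of 29 higher), -0.64 for mitochondrial transcripts (1 of 8 higher), -0.86 for neuron markers (0 of 5 higher) and -0.57 for oligodendrocyte markers (0 of 4 higher). These lists include the neuron and oligodendrocyte genes of the rule. The part of that library's cytoplasmic and other-cell RNA in the HIF list was not tested.

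Astrocyte function genes gave no call between genotypes either. Of 16 grey-matter genes 12 were higher and 4 lower in PHD1-/-, with a median of 0.12 (9 of 16 higher and 0.09 without the ependymal-marked nuclei). Gpc5 stood at 3440, 4919 and 5200 CPM in PHD1+/+ and 5151, 7412 and 5366 CPM in PHD1-/- (log2 fold change 0.38, SE 0.21). Slc6a11 and Slc1a2 had log2 fold changes of 0.02 (SE 0.31) and 0.03 (SE 0.28), and both turned negative without the ependymal-marked nuclei (-0.07 and -0.08).

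Clu stood at 753, 1002 and 765 CPM in PHD1+/+ and 522, 510 and 683 CPM in PHD1-/- members, with no overlap (log2 fold change -0.58, SE 0.24, adjusted p = 1.00 by edgeR). Mt1 had a log2 fold change of -0.83 (SE 0.48), and the chaperone genes Hspa8 and Hsp90aa1 had -0.98 (SE 0.42) and -0.59 (SE 0.34). Without PHD1+/+ replicate 1 these values were -0.02, -0.50 and -0.27.

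**Figure D5:**
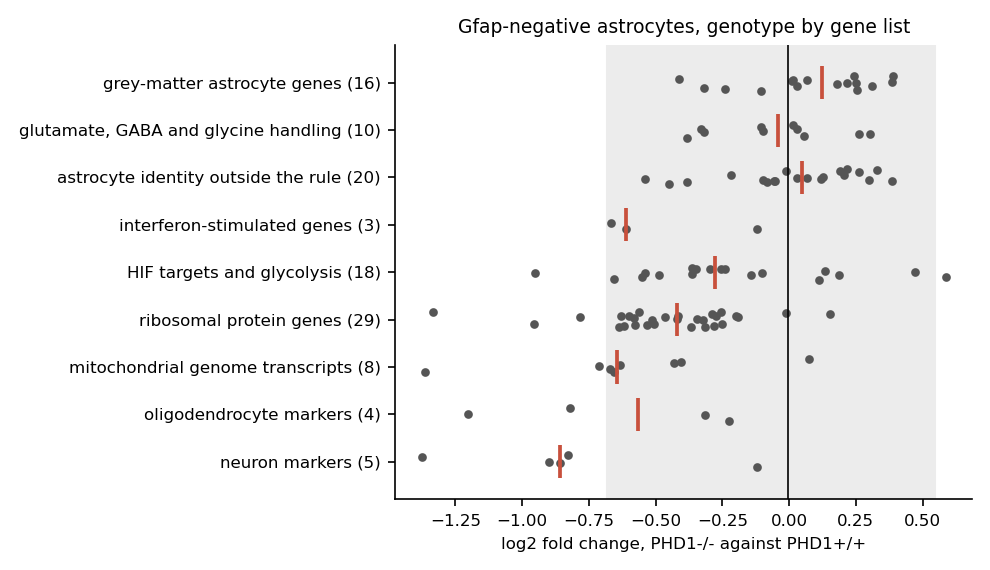
Log2 fold change of PHD1-/- against PHD1+/+ in Gfap-negative astrocytes (x axis) for the tested genes of 9 lists (1 point a gene, number of genes in brackets), with the list median as a red bar, the median of all 3800 genes as a black line and the range of the central 90% of them (-0.68 to 0.55) as a grey band. Grey-matter and astrocyte identity genes lie around the black line, and ribosomal, mitochondrial, oligodendrocyte and neuron genes lie mostly to its left. The medians of the interferon-stimulated list (-0.61, 3 genes) and the HIF and glycolysis list (-0.28, 18 genes) also lie to its left.

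Whether loss of PHD1 went with another difference in Gfap-negative than in Gfap-positive astrocytes was tested as an interaction of genotype and class with the library as a block. Of 5453 genes 0 passed by edgeR (0%), and 140 had an unadjusted p under 0.05. By DESeq2 0 passed and 22 lay under that limit, and without the ependymal-marked nuclei 0 of 4711 passed by edgeR. The smallest p belonged to Igfbp2, an insulin-like growth factor binding protein, with an interaction of 3.00 on the log2 scale (SE 0.62, adjusted p = 0.158 by edgeR). It stood at 59.0, 35.8 and 37.1 CPM in PHD1+/+ and 255, 72.9 and 31.3 CPM in PHD1-/- members, and at 78.2, 79.2 and 274 against 33.4, 38.1 and 28.9 CPM in Gfap-positive astrocytes. A single library, PHD1-/- replicate 1 in members and PHD1+/+ replicate 3 in the Gfap-positive class, was far above its group each time. The next 2 were the non-coding RNA Pvt1 (-1.92, SE 0.49) and the myosin phosphatase subunit gene Ppp1r12b (-1.31, SE 0.36).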

How the data were processed

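The authors deposited UMI counts per gene and nucleus for 6 libraries made with the 10x 3' method, 32285 genes each, with barcodes of under 500 UMIs already absent. Cell Ranger 5.0.1 is named per the file headers, and Cell Ranger 5.0.2, Scanpy 1.8.1 and the mm10 genome per the submitters' processing notes. The counting of intronic reads: not given in the sources used here. The 4 antibody tags held 0 UMIs and were not used.

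Counts were summed per class and library (member totals of 67740 to 639568 UMIs) and tested in R 4.3.3 with edgeR 4.0.16 (TMM, filterByExpr, quasi-likelihood, Benjamini-Hochberg, threshold 0.05), after the code had been tested on simulated data. DESeq2 1.42.0 was an alternative. Shares and Egln2 were compared by exact permutation in scipy 1.17.1. Intervals cover counting error only. No doublet caller was run; the limits on neuron and oligodendrocyte genes and a stricter set of them stand in its place. Positions come from GENCODE M21 (GRCm38), where 136 of 136 named genes were found.

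The members and gene lists were chosen with earlier results of these data known. Named genes were Egln2, the 6 smallest p per direction between genotypes, the 10 largest called changes per direction between classes (mean of at least 50.0 CPM, same direction in all 6 libraries), the 3 smallest interaction p and the 2 highest tested members of each list; other called or low list members were named after their values were seen. Some genes that these rules pick are not reported here. Same-numbered libraries had correlated deviations (0.385, 0.176 and 0.374 for replicates 1, 2 and 3), so the replicate number was tried as a block. Pairs of unlike number gave -0.401 to 0.273. The highest of these, PHD1-/- replicate 3 with PHD1+/+ replicate 2, lay above the pair of replicates 2.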

Additional observations from a re-analysis of the deposited data

How the results depend on the processing

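With few nuclei a library, depth limits what could be tested: most interferon-stimulated and reactive genes fell under the filter on low counts. Of 36 HIF target and glycolysis genes 18 were tested, between genotypes and between classes alike. Between classes, the counts of higher and lower genes were 52 and 76 by DESeq2, 242 and 243 with no filter, and 13 and 22 without the library as a block. They were 24 and 38 with 0 UMIs of other cell types' genes, 38 and 71 at 1000 UMIs, and 39 and 84 at 1000 UMIs without the ependymal-marked nuclei. Higher genes numbered 76 with at least 4 markers and 221 with at least 2. Leaving out 1 library gave 58 to 125 higher and 101 to 150 lower genes. For the interaction 1 gene passed with no filter and 1 with nuclei of at least 1000 UMIs, and leaving out 1 library gave 0 to 1. Between genotypes 0 genes passed in each alternative, the replicate block included, where 231 genes had an unadjusted p under 0.05 against 55. The block changed no call between genotypes. Each replicate number holds 1 library of each group, so a block leaves a difference of group means as it is by arithmetic. The differences in the share of nuclei (0.724 points), the Gfap-negative share (0.524 points) and Egln2 (-21.3 CPM) were therefore not checked by it.

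The difference in the share of nuclei ran from -0.402 to 1.37 points when 1 library was left out. That in the Gfap-negative share ran from -7.40 to 10.9, and was -0.680 with at least 2 markers and -2.63 with replicates 2 and 3 only. Some log2 fold changes between genotypes turned: Slc1a2 to -0.110 with at least 4 markers, -0.211 with 0 UMIs of other cell types' genes and -0.0781 without ependymal-marked nuclei, Slc6a11 to -0.0868, -0.0246 and -0.0706 in the same order, and Hif1a to -0.0556 and -0.0385 under the former pair. Ldhb turned to 0.0755 with 0 UMIs of other cell types' genes and to 0.211 with replicates 2 and 3 only, and B2m and H2-K1 to 0.0762 and 0.121 with at least 2 markers. Leaving out 1 library gave -0.187 to 0.242 for Slc1a2, -0.198 to 0.260 for Slc6a11, -1.19 to 0.0438 for B2m, -0.305 to 0.256 for H2-K1, -0.107 to 0.219 for Hif1a, -0.830 to 0.0289 for Aldoc and -0.708 to 0.320 for Ldhb. Between classes Ptgds turned to -0.17 at 1000 UMIs, with or without ependymal-marked nuclei, and Slc1a2 to -0.25 with at least 2 markers. For these turns the cause was not tested. Of the other values of named genes between classes, 970 kept their direction and side of the threshold, 222 lost the call and 5 gained it.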
